A study of Mus musculus with 20 samples.

Results

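The 10 genes described here build, sulfate and trim heparan sulfate, the sulfated sugar chain of the cell surface and extracellular matrix. They are Ext1, Ext2, Ndst1, Hs2st1, Hs6st1, Hs6st2, Hs6st3, Hs3st1, Sulf1 and Sulf2. The array's annotation assigned 128 of the 194293 probe sets to them, and they make up 10 of the 15803 genes measured. A probe set is a small group of probes that reads a stretch of a gene, usually within 1 exon. All 10 genes passed the filter that left out the dimmest 25% of genes and were among the 11852 genes tested. Hs6st2 was chosen by its measured differences between the later ages and 1 month on these same arrays, and the other 9 because they act on the same chain. The values of Hs6st2 are therefore given as a description with no test.

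The samples were retinas of Nrl-/- mice of the C57Bl/6J strain at 1, 2, 4, 6 and 10 months after birth, with 4 mice and 4 arrays per age and both retinas of a mouse in a sample. Nrl encodes a transcription factor needed for rod fate, and in its absence the photoreceptors develop as cone-like cells. Every group carried the same Nrl deletion, and no wild-type retina was analysed here, so changes with age in any retina and changes particular to the Nrl deletion cannot be told apart. The title of the study is about cones that are preserved after a short phase of retinal degeneration, and the ages were compared along that course. Levels are log2 intensities of ribosomal RNA-depleted total RNA on Affymetrix exon arrays, and precision is limited by the 4 arrays per age. In whole retina, fewer cells of a type and less RNA per cell cannot be told apart.

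Heparan sulfate is polymerised in the Golgi on core proteins such as syndecans and glypicans. The growing chain is then modified in sequence: N-deacetylase/N-sulfotransferases act first, an epimerase and the 2-O-sulfotransferase follow, and the 6-O- and 3-O-sulfotransferases add the last groups. After the chain reaches the cell surface, the sulfatases Sulf1 and Sulf2 remove 6-O-sulfate from it. The pattern of 6-O-sulfate affects the binding of fibroblast growth factors and other ligands, and in the nervous system heparan sulfate takes part in axon guidance and in the binding of growth factors.

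Mouse has the genes Hs6st1, Hs6st2 and Hs6st3 for the addition of 6-O-sulfate, and they had different courses with age on these arrays, so their promoter windows are shown. Each window runs from 250 bases before to 50 bases after a RefSeq transcript start (GRCm38.p6) and is written along the gene's strand. Capitals mark matches to TATAAA, the core of the TATA box, or to GGGCGG, the GC box, searched on both strands. No match overlapped a match of the other motif. Hs6st2 lies on chromosome X and has 2 windows, of which the first belongs to the start farther upstream.
Hs6st2 first window, chrX:51681553-51681852, minus strand: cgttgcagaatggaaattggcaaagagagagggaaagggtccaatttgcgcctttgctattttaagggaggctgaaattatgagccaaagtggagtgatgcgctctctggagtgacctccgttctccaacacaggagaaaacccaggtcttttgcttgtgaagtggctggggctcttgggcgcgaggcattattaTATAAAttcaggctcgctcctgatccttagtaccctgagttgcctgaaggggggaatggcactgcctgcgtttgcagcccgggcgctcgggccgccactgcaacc
Hs6st2 second window, chrX:51680428-51680727, minus strand: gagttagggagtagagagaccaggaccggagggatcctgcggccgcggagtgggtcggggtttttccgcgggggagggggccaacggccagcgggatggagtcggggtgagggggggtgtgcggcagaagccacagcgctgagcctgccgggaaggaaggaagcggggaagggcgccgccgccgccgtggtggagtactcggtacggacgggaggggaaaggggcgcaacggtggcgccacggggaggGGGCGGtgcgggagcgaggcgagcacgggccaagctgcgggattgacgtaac
Hs6st1 window, chr1:36068150-36068449, plus strand: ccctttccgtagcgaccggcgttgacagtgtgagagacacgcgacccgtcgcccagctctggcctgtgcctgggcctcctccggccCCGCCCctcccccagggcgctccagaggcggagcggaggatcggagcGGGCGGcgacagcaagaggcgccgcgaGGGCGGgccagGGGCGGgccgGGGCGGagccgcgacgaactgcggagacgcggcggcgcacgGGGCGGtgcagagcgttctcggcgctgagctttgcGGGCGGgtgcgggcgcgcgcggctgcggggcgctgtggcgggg
Hs6st3 window, chr14:119138015-119138314, plus strand: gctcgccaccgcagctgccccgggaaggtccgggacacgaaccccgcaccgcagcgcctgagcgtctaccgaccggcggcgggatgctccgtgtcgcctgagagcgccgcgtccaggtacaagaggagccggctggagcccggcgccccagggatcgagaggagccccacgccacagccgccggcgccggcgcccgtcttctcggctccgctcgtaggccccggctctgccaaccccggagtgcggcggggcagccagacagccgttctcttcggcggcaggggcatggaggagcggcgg
The first Hs6st2 window differs in composition from the other 3. It has 53.67% G and C and 12 CpG dinucleotides, against 71.67% and 33 in the second Hs6st2 window, 78% and 47 for Hs6st1, and 75.33% and 41 for Hs6st3. The median over 32841 windows was 52.67% and 7. A TATAAA match begins 55 bases before the start in the first Hs6st2 window, and the other 3 windows have none. Of all windows 13.6% hold this motif. GGGCGG was found once in the second Hs6st2 window, 7 times for Hs6st1 and not in the Hs6st3 window, and 35.7% of all windows hold it. TAATCC, the core bound by the photoreceptor homeodomain factors CRX and OTX2, is in none of the 4 windows, and 7.06% of all windows hold it. These letter matches are descriptions, and binding was not measured. Of the 10 genes, 7 had a window in the RefSeq table.

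Some properties of the arrays move with age and bear on what follows. The Y-linked genes Eif2s3y and Kdm5d had a mean level between 4.00 and 4.28 in the 4 arrays of 2 months, and of 4.13 and 4.42 in replicates 2 and 3 of 10 months. In the other 14 arrays it was between 7.33 and 8.28. The labels give no sex, so comparisons with 2 months set Y-linked levels against each other along with ages. The mean of 4 lens genes was between 7.37 and 8.34 at 1 month and 8.21 in replicate 2 of 6 months, and at most 6.41 elsewhere. Cone markers were high in every array but lower at 10 months, where the mean of 6 genes was between 11.83 and 11.96, against 12.17 to 12.29 at 1 month. The difference was -0.32, with 3 of 6 called lower and none higher, beside 20.8% of all genes tested called lower, and the part of this in the 10 month differences was not tested. The 3 rod markers measured had means of 6.63 to 7.13. The array of 4 months replicate 4 had the lowest mean correlation with the others, 0.985.

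Hs6st2, one of the genes for adding 6-O-sulfate, was higher at each later age than at 1 month. Its 4 arrays gave 6.63, 6.59, 6.28 and 6.66 at 1 month and 7.60, 7.68, 7.63 and 7.46 at 2 months. They gave 8.12, 8.20, 8.21 and 8.12 at 4 months and 8.23, 8.19, 8.31 and 8.28 at 6 months. At 10 months they gave 8.49, 8.58, 8.56 and 8.59. The ages stood in the order 1, 2, 4, 6 and 10 months, and the neighbours 4 and 6 months overlapped, while the other neighbouring ages did not. The group means were 6.54 ± 0.17, 7.59 ± 0.09, 8.16 ± 0.05, 8.25 ± 0.05 and 8.56 ± 0.05 at 1, 2, 4, 6 and 10 months (SD, n = 4 each).

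The step between 1 and 2 months, 1.05 ± 0.07 (SE) on the log2 scale or 2.07-fold, was the largest between neighbouring ages in Hs6st2. Against 1 month the level was 3.07-fold higher at 4 months (1.62), 3.28-fold higher at 6 months (1.71) and 4.04-fold higher at 10 months (2.01 ± 0.07). The later steps were 0.57 for 4 against 2 months, 0.09 for 6 against 4 months and 0.30 for 10 against 6 months. Arrays of both ages did not overlap for 2, 4, 6 and 10 months against 1 month, which held in the same direction for 7.49%, 8.34%, 11.2% and 17.9% of all genes tested. They also did not overlap for 4 against 2, 10 against 6 and 10 against 4 months, for which the shares of all genes were 3.11%, 10.6% and 9.03%. Since Hs6st2 was picked for its change, nothing is read from these shares. Its 10 month arrays low in Y-linked genes, with 8.58 and 8.56, lay between the other 2, with 8.49 and 8.59. All arrays of 2 months were low in Y-linked genes and none of 1 month was. In the step between these ages, age and the Y-linked difference cannot be told apart.

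**Figure D1:**
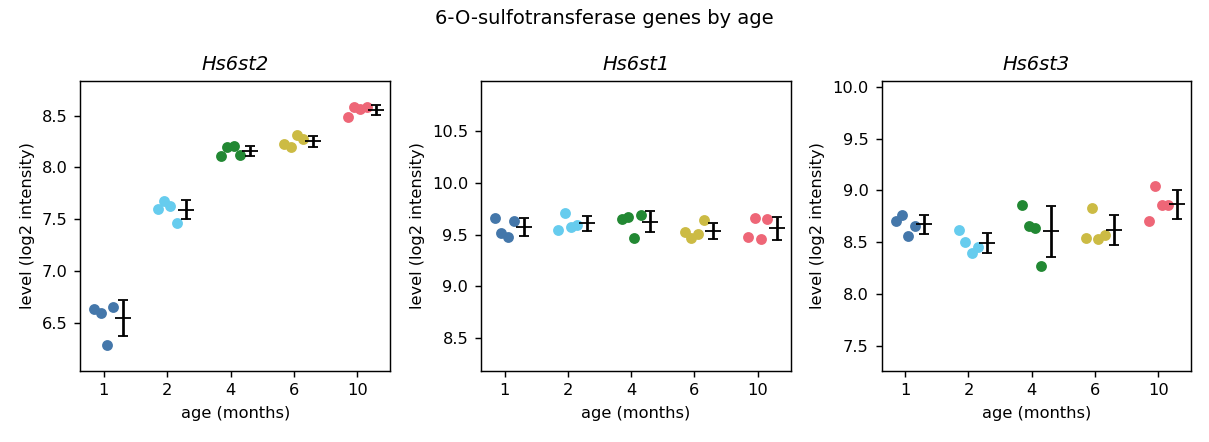
Levels of Hs6st2, Hs6st1 and Hs6st3 (log2 intensity, vertical axis) against age in months (horizontal axis, ages evenly spaced), with a point per array and a bar for mean and SD (n = 4); each panel has its own axis. Hs6st2 means go up with each age to 8.56 at 10 months, against 6.54 at 1 month, while the Hs6st1 arrays span 0.25 in all.

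All 7 probe sets of Hs6st2 took part in its change. Their differences were between 0.59 and 1.42 for 2 against 1 month, between 0.98 and 1.92 for 4 against 1 month, and between 1.40 and 2.68 for 10 against 1 month. For 4 and for 10 months against 1 month the arrays did not overlap in any of the 7. A separation with the same direction was found for 3.88% and 8.54% of all 194293 probe sets. Nothing is read from these shares, since the gene was picked for its change and its probe sets read the same samples. The brightest probe set had the smallest difference at 2, 4, 6 and 10 months, with 0.59, 0.98, 1.06 and 1.40. For 10 against 6 months 6 of the 7 were higher and 1 differed by -0.10. The probe sets with the largest differences at 10 months, 2.68 and 2.36, had 1 month means of 5.42 and 5.62, at about the limit of 5.61 under which genes were left out.

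**Figure D2:**
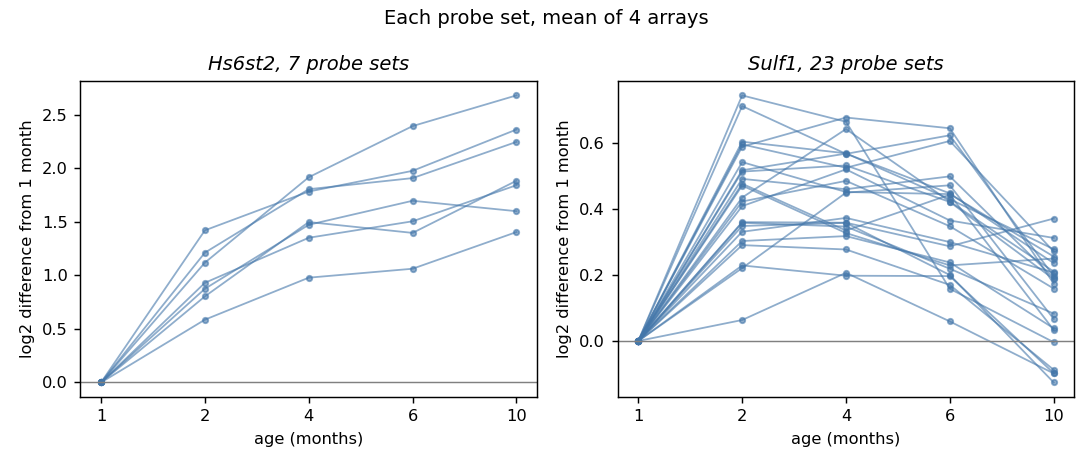
Difference from 1 month (log2, vertical axis) at each age in months (horizontal axis) for each probe set of Hs6st2 (7 lines, left) and of Sulf1 (23 lines, right), each point the mean of 4 arrays minus the 1 month mean. The Hs6st2 lines end between 1.40 and 2.68 at 10 months, and 22 of 23 Sulf1 lines are lower at 10 months, where they lie between -0.13 and 0.37, than at 4 months.

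The list of Muller glia markers, the radial glia of the retina, moved in the same direction over the same ages. The mean of its 6 genes was 0.20, 0.28, 0.36 and 0.45 above 1 month at 2, 4, 6 and 10 months, with arrays between 11.02 and 11.20 at 10 months and between 10.61 and 10.73 at 1 month. Of the 6, 5 were called higher at 10 months than at 1 month and none lower, where 20.6% of all genes tested were called higher. Endothelial markers moved the other way, with a difference of -0.57 in the mean of 4 genes between 10 months and 1 month and 3 of 4 called lower, beside 20.8% of all genes. The part of either cell type in the Hs6st2 values was not tested.

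Hs6st1 and Hs6st3, the other genes for 6-O-sulfation, were not called in any of the 8 comparisons of ages. Hs6st1 had 9.48, 9.66, 9.46 and 9.65 at 10 months, against 9.66, 9.51, 9.48 and 9.63 at 1 month, and the groups overlapped. The difference was -0.01 ± 0.07 (SE, limma, adjusted p = 0.936), and the arrays of all ages lay between 9.46 and 9.71. The moderated F test over the 5 ages gave an adjusted p of 0.742. Its 4 probe sets did not move together, with 3 higher and 1 lower at 10 months than at 1 month (-0.14 to 0.26). In 1 of them all 10 month arrays were above those of 1 month, as in 8.54% of all probe sets. Hs6st3 had 8.70, 9.04, 8.86 and 8.86 at 10 months, against 8.85, 8.65, 8.63 and 8.27 at 4 months. Here too the groups overlapped, with a difference of 0.26 ± 0.10 (adjusted p = 0.0742), although all 5 probe sets of Hs6st3 were higher at 10 months. Its adjusted p over the 5 ages was 0.0613. Without replicates 2 and 3 of 10 months, an alternative chosen after seeing the data, the Hs6st3 difference was 0.18 (adjusted p = 0.369). A missed threshold does not show that these levels were equal.

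Hs2st1, the 2-O-sulfotransferase gene, varied least of the modifying enzymes, with all 20 arrays between 9.75 and 9.96. At 10 months it gave 9.83, 9.82, 9.76 and 9.82, against 9.89, 9.96, 9.80 and 9.89 at 1 month, and the difference of -0.08 ± 0.05 was not called (adjusted p = 0.202). Hs3st1, a 3-O-sulfotransferase gene that in mouse is known for making the antithrombin-binding form of the chain, gave 7.55, 7.73, 7.85 and 7.90 at 10 months, against 7.10, 7.51, 7.52 and 7.80 at 4 months. Its difference of 0.28 ± 0.10 missed the threshold (adjusted p = 0.0668), and the F test gave 0.122. The 4 arrays of 4 months spread widely in this gene (7.48 ± 0.29, SD), and only 3 probe sets measured it.

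Ext1 and Ext2 encode the subunits of the polymerase that extends the chain. Ext2 was steady, with all arrays between 9.64 and 9.84 and no comparison called, and its 10 months minus 1 month difference was 0.04 ± 0.04 (adjusted p = 0.453). Ext1 was not called either, but its 10 month arrays lay in 2 pairs, 8.30 and 8.28 in replicates 1 and 4 and 8.04 and 7.94 in replicates 2 and 3, which are the arrays low in Y-linked genes. The 1 month arrays of Ext1 gave 8.12, 8.14, 7.93 and 8.08. The difference between 10 and 1 months was 0.07 ± 0.07 (adjusted p = 0.473), and 0.22 (adjusted p = 0.0227) without replicates 2 and 3. The contrast between the pairs was not tested.

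Ndst1, whose enzyme removes acetyl groups and adds N-sulfate and so opens the chain to the later steps, was slightly higher at 10 months. It gave 10.62, 10.72, 10.63 and 10.76 at 10 months, against 10.54, 10.61, 10.54 and 10.41 at 6 months and 10.61, 10.52, 10.57 and 10.40 at 4 months. Each 10 month array was above each array of the other 4 ages, and for 10 against 6 and 4 months 10.6% and 9.03% of all genes tested stood apart in this direction. The differences were 0.16 ± 0.05 against 6 months (adjusted p = 0.0460) and 0.16 ± 0.05 against 4 months (adjusted p = 0.0457). Against 1 month the difference was 0.14 ± 0.05 and missed the threshold (adjusted p = 0.0520). The F test over the 5 ages did not call Ndst1 (adjusted p = 0.102). Of 18 probe sets 16 were higher at 10 than at 4 months. These are weak calls: of 20 fits that each left out 1 array, the call against 6 months was lost in 15 and that against 4 months in 14, with adjusted p up to 0.158 and 0.127.

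Sulf1 and Sulf2, the extracellular 6-O-endosulfatases, had their highest means at 2 and 4 months. Sulf1 gave 9.74, 9.86, 9.94 and 9.95 at 2 months and 10.03, 9.82, 9.97 and 9.80 at 4 months, against 9.55, 9.36, 9.33 and 9.53 at 1 month. At 6 months it gave 9.82, 9.77, 9.90 and 9.75, and at 10 months 9.70, 9.48, 9.46 and 9.72. Every array of 2, 4 and 6 months was above every array of 1 month, which held for 7.49%, 8.34% and 11.2% of all genes tested, and the 10 month arrays overlapped those of 1 month. The rises over 1 month were 0.43 ± 0.08 at 2 months (adjusted p = 0.00165), 0.46 ± 0.08 at 4 months (adjusted p = 0.000484) and 0.37 ± 0.08 at 6 months (adjusted p = 0.00277). All 3 calls held in each fit that left out 1 array and under each other processing setting tried.

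At 10 months Sulf1 was lower again. Relative to 4 months it fell by 0.32 (SE 0.08, adjusted p = 0.00607), with 22 of 23 probe sets lower, and its difference from 1 month was 0.15 ± 0.08 (adjusted p = 0.135). The difference from 4 months was called in every fit that left out 1 array, but not in a fit of the arrays of both ages alone (adjusted p = 0.0576). It was -0.20 (adjusted p = 0.120) without replicates 2 and 3 of 10 months, the lower of the 4 arrays, and in that fit Sulf1 was called higher at 10 months than at 1 month (0.27, adjusted p = 0.0210). The difference of -0.22 between 10 and 6 months (adjusted p = 0.0468) was lost in 12 of 20 fits that left out 1 array.

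Sulf2 was called against 1 month at 2 months only, with differences of 0.16 at 4 months (adjusted p = 0.187) and 0.05 at 6 months (adjusted p = 0.740). It gave 10.36, 10.48, 10.76 and 10.61 at 2 months, against 10.40, 10.23, 10.18 and 10.34 at 1 month, and the groups overlapped. The difference was 0.26 ± 0.08 (adjusted p = 0.0444), with all 24 probe sets higher, and the call was lost in 12 of 20 fits that left out 1 array. At 10 months Sulf2 gave 10.21, 10.20, 10.09 and 10.21, against 10.62, 10.38, 10.39 and 10.42 at 4 months. Every 10 month array was below every 4 month array, as in 10.3% of all genes tested, and all 24 probe sets were lower. The difference was -0.27 ± 0.08 (adjusted p = 0.0201). It was -0.21 (adjusted p = 0.0689) without replicate 1 of 4 months and -0.24 (adjusted p = 0.0578) without replicate 3 of 10 months, and it was not called (-0.24, adjusted p = 0.114) without replicates 2 and 3 of 10 months.

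**Figure D3:**
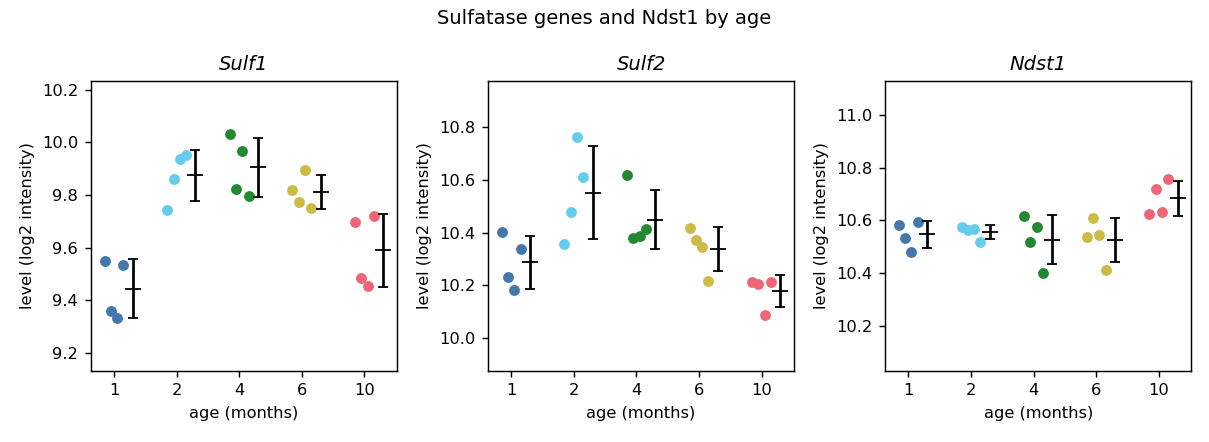
Levels of Sulf1, Sulf2 and Ndst1 (log2 intensity, vertical axis) against age in months (horizontal axis, ages evenly spaced), with a point per array and a bar for mean and SD (n = 4); each panel has its own axis. Sulf1 and Sulf2 are lower at 10 months (9.59 ± 0.14 and 10.18 ± 0.06) than at 4 months (9.90 ± 0.11 and 10.45 ± 0.11), and the 4 Ndst1 arrays of 10 months lie above those of the other ages.

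Microglia markers also had their highest means at 2 and 4 months. The mean of 4 genes was 0.52, 0.32 and 0.13 above 1 month at 2, 4 and 6 months and differed from it by -0.07 at 10 months. Of the 4, 3 were called higher at 2 months than at 1 month, beside 3.3% of all genes, and 3 were called lower at 10 months than at 4 months, beside 11.7%. Astrocyte markers had their highest means at these ages too. The mean of 3 genes was 0.30, 0.15, 0.05 and 0.08 above 1 month at 2, 4, 6 and 10 months. Of the 2 tested, 0 were called at 2 months against 1 month. The part of either cell type in the Sulf1 and Sulf2 values was not tested.

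The calls among the 9 genes other than Hs6st2 were few, and each count stands here beside the share of all genes called. Against 1 month, limma called 2 of 9 higher at 2 months (Sulf1 and Sulf2). Of all genes tested, 8.52% were called there either way and 3.3% were called higher. Limma called 1 of 9 at 4 months and 1 at 6 months (Sulf1 both times), where 15.1% and 16.4% of all genes were called. At 10 months none of the 9 was called, with 1 at an unadjusted p under 0.05, where 41.4% of all genes were called. Between 10 and 6 months 2 were called, Ndst1 higher and Sulf1 lower, against 20.3% of all genes, and between 10 and 4 months 3 were called, Ndst1 higher and Sulf1 and Sulf2 lower, against 21.9%. For 4 against 2 and 6 against 4 months none of the 9 was called or had an unadjusted p under 0.05, and 0.127% and 0% of all genes were called. The F test over the 5 ages called 2 of 9, Sulf1 (adjusted p = 0.000253) and Sulf2 (adjusted p = 0.00758), against 38.4% of all genes. Comparisons with 1 month share the same 4 arrays of that age, and those of 10 months share theirs. The median difference of the 9 at 10 against 1 month was 0.07, and that of all genes tested was 0.04.

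**Figure D4:**
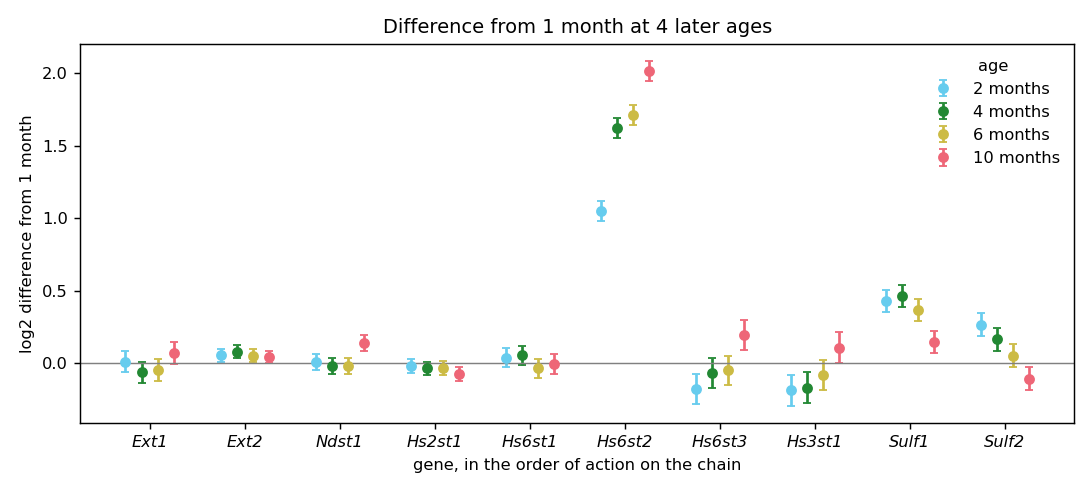
Difference from 1 month (log2, vertical axis) at 2, 4, 6 and 10 months for each of the 10 genes, in the order in which their products act on the chain (horizontal axis); points are differences of means of 4 arrays and bars are standard errors. Hs6st2 stands at 1.05 to 2.01, Sulf1 at 0.15 to 0.46, and the other points lie between -0.19 and 0.26.

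Beyond these 10 genes, 50 others of the heparan sulfate pathway were listed, of which 44 were on the array and 42 were tested. At 10 months 22 of the 42 (52.4%) differed from 1 month, 15 higher and 7 lower, beside 41.4% of all genes tested (20.6% higher and 20.8% lower). By the brightest probe set of each gene it was 11 of 40 (27.5%), beside 27.8% of all genes, so the excess over all genes was not seen there. Their median difference was 0.10, and that of all genes tested was 0.04. Earlier differences were fewer: 2 genes at 2 months, 5 at 4 months and 6 at 6 months against 1 month, or 4.76%, 11.9% and 14.3%, which lie below the 8.52%, 15.1% and 16.4% of all genes. Array weights gave 8, 10 and 12 of them (19%, 23.8% and 28.6%), beside 20%, 25.5% and 25% of all genes. Between 10 and 6 months 14 were called (33.3%, beside 20.3% of all genes) and between 10 and 4 months 12 (28.6%, beside 21.9%). By the brightest probe set these were 5 and 4 of 40 (12.5% and 10%), beside 8.34% and 9.07% of all genes. For 4 against 2 and 6 against 4 months limma called 0, with 0 and 1 at an unadjusted p under 0.05.

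The linkage region that joins the chain to its core protein is begun by xylosyltransferases. Xylt1, which encodes one of them, had a lower mean at each age than at the age before. It gave 9.95, 9.74, 9.36 and 9.50 at 10 months, against 10.41, 10.47, 10.33 and 10.50 at 1 month. Limma called it lower there, as it did 20.8% of all genes tested. Relative to 1 month it fell by 0.34 at 4 months (SE 0.09, adjusted p = 0.0138), by 0.49 at 6 months and by 0.79 at 10 months. Xylt2, the other xylosyltransferase gene, was higher at 10 months, with 9.03, 9.07, 9.06 and 9.02, against 8.81, 8.79, 8.66 and 8.74 at 1 month (0.30 ± 0.06). Fam20b, the gene of the kinase that phosphorylates the linkage xylose, was also higher (0.25 ± 0.05). Of the 7 linkage genes these 3 (42.9%) were called at 10 months, near the 41.4% of all genes. Of the 3 tested relatives of Ext1 and Ext2, 1 (33.3%) was called at 10 months, also beside 41.4% of all genes. It was Extl1 (0.30 ± 0.10, adjusted p = 0.0175). Leaving out either replicate 1 of 1 month or replicate 3 of 10 months ended that call.

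Among the enzymes that modify the chain, Glce encodes the epimerase that turns glucuronic into iduronic acid. Its arrays gave 8.20, 7.81, 8.28 and 7.96 at 2 months, against 7.51, 7.50, 7.28 and 7.54 at 1 month. They did not overlap, as in 7.49% of all genes tested in this direction. Glce then stayed at that level, with differences from 1 month of 0.60 ± 0.11 at 2 months (adjusted p = 0.00180), 0.56 at 4 months, 0.62 at 6 months and 0.61 at 10 months. Ndst2, a second N-deacetylase/N-sulfotransferase gene, fell by 0.45 at 10 months (SE 0.11, adjusted p = 0.00362), while Ndst3 and Ndst4 were not called. Hs3st3b1, a 3-O-sulfotransferase gene, fell by 0.69 at 10 months and was already called lower at 4 months, a call lost without replicate 2 of 1 month or with the mean of the probe sets. The other 3 tested 3-O-sulfotransferase genes were not called in the comparison of 10 with 1 month.

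Of 6 tested genes that supply sulfate or sugar donors, 3 were called at 10 months, a share near the 41.4% of all genes. Papss2, which makes the sulfate donor PAPS, gave 6.82, 5.96, 6.54 and 6.42 at 10 months, against 5.74, 5.63, 5.63 and 5.49 at 1 month (0.82 ± 0.16, adjusted p = 0.000351). The sulfate transporter gene Slc26a2 was 0.26 higher, a call lost without replicate 1 of 1 month or without replicate 3 or 4 of 10 months. Ugdh, which makes the glucuronic acid donor, fell by 0.24 (SE 0.05, adjusted p = 0.00128).

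Of 11 tested core protein genes, 6 were called higher at 10 months than at 1 month and 1 lower, beside 20.6% and 20.8% of all genes. The 6 include Col18a1 and Sdc1, whose differences turned negative by the brightest probe set. Gpc4, a glypican gene, gave 7.83, 7.69, 7.96 and 8.02 at 10 months, against 7.14, 7.09, 6.95 and 7.14 at 1 month (0.79 ± 0.10). Gpc6, another glypican gene, was 0.55 ± 0.07 higher. Col18a1, which encodes collagen XVIII of basement membranes, gave 8.94, 8.01, 8.85 and 8.95 at 10 months, against 7.68, 7.91, 7.87 and 7.73 at 1 month (0.89 ± 0.21, adjusted p = 0.00204). Replicate 2 of 10 months was the lowest of its age in Col18a1 and in Papss2, and it was also the lowest in the pigment epithelium markers. The mean of those 4 markers was 7.74, 6.89, 7.60 and 8.11 in the 10 month arrays, against 6.79 to 7.17 at 1 month, and their part in these results was not tested. By its brightest probe set Col18a1 differed by -0.04. The syndecan gene Sdc1 was called higher by 0.34 ± 0.13 (adjusted p = 0.0484), a call lost in 15 of 20 fits that left out 1 array, and by its brightest probe set it differed by -0.19.

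Lysosomal enzymes that break the chain down moved in both directions, with 3 of 7 called higher and 2 lower at 10 months, beside 20.6% and 20.8% of all genes. Sgsh and Ids, whose products remove N-sulfate and 2-O-sulfate, were 0.34 ± 0.07 and 0.32 ± 0.07 higher. Naglu, which removes N-acetylglucosamine, fell by 0.37 (SE 0.07), although its brightest probe set gave a difference of 0.04. Arsg, which removes 3-O-sulfate, was lower at 2 months than at 1 month (7.62, 7.53, 7.47 and 7.46, against 7.80, 7.91, 7.79 and 7.86) and was 0.19 higher at 10 than at 4 months. Leaving out replicate 1 of 4 months or replicate 2 or 4 of 10 months ended the call of Arsg for 10 against 4 months, as did the mean or the brightest probe set.

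**Figure D5:**
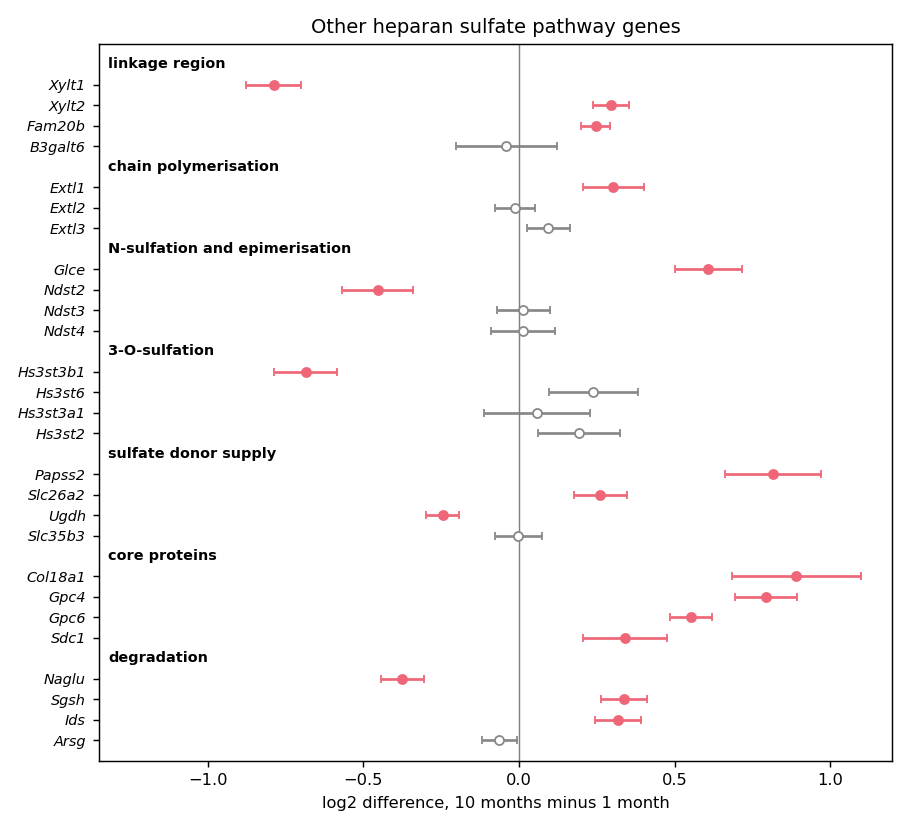
Difference of 10 months minus 1 month (log2, horizontal axis) for up to 4 genes of each list of other heparan sulfate pathway genes (vertical axis, by step of the pathway), with standard errors; filled red points were called by limma and open grey points were not. Xylt1 and Hs3st3b1 are lowest (-0.79 and -0.69) and Col18a1, Papss2 and Gpc4 highest (0.89, 0.82 and 0.79).

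The related chondroitin and dermatan sulfate enzymes had 5 of 12 tested genes called at 10 months, 4 higher and 1 lower. This share of 41.7% is near the 41.4% of all genes (20.6% higher and 20.8% lower). Ust, whose enzyme 2-O-sulfates those chains, gave 10.21, 10.07, 9.98 and 10.30 at 10 months, against 9.44, 9.13, 9.16 and 9.29 at 1 month. Its differences from 1 month were 0.51 at 4 months, 0.67 at 6 months and 0.89 ± 0.08 at 10 months. Chst12, a 4-O-sulfotransferase gene, fell by 0.48 (SE 0.10, adjusted p = 0.000788).

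Genes of growth factors that bind heparan sulfate, and of their signalling, had 9 of 19 tested members called at 10 months. Of these, 8 were higher and 1 lower, beside 41.4% of all genes (20.6% higher and 20.8% lower). Fgf2, a fibroblast growth factor gene, was highest at 2 months, with 8.92, 9.10, 9.50 and 9.43, against 8.26, 8.28, 8.45 and 8.25 at 1 month (0.93 ± 0.12). At 10 months it had fallen by 0.44 relative to 4 months (SE 0.12, adjusted p = 0.0115), a call lost without replicates 2 and 3 of 10 months. Its receptor gene Fgfr1 was 0.48 ± 0.08 higher at 4 months than at 1 month and 0.44 higher at 10 months. Ptn, which encodes the heparin-binding factor pleiotrophin, was 0.45 ± 0.10 higher at 2 months and 0.78 ± 0.10 at 10 months. Hbegf, the gene of heparin-binding EGF-like growth factor, was 0.32 ± 0.07 higher at 10 months than at 1 month.

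The genes whose levels ran most like that of Hs6st2 were taken by Pearson's r over the 20 arrays among all genes tested. They were Mlc1 (0.968), a membrane protein gene, Jade2 (0.967) and Acot11 (0.966), an acyl-CoA thioesterase gene. Next came the scavenger receptor gene Scara3 (0.965) and Etnppl (0.964), a phosphoethanolamine lyase gene. The nuclear receptor gene Esrrb (0.961), the peroxiredoxin gene Prdx6 (0.956) and Prr5 (0.955) followed. Spearman's rho for these 8 lay between 0.884 and 0.922. The arrays share their ages, and after the age means were taken out r lay between -0.03 and 0.47, each time over 20 arrays. At 10 against 1 month the differences were 1.48 ± 0.09 for Etnppl, 1.43 ± 0.08 for Esrrb, 1.02 ± 0.08 for Scara3 and 0.59 ± 0.05 for Mlc1, all smaller than the 2.01 of Hs6st2. The most opposite genes were Gckr (-0.956), which encodes the glucokinase regulator, the DNA methyltransferase gene Dnmt3a (-0.951), the autophagy gene Atg16l1 (-0.936) and Traf3ip2 (-0.936). The Gckr difference between 10 months and 1 month was -0.98 ± 0.07. These values are descriptions, since the genes were picked for their course.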

How the data were processed

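Retinas of 20 Nrl-/- mice, 4 per age, were measured on exon arrays. The deposited values are log2 intensities per probe set, which the authors made with RMA, per the submitters' processing notes. The version of RMA, the array build and any batch or date were not stated there. RMA brings the arrays to 1 distribution and so hides any shift shared by all genes.

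Gene names came from the platform's table. It gave 1 symbol for 179496 probe sets, several for 1328, which were dropped, and none for 13469. Old symbols were replaced with those of RefSeq (GRCm38.p6). A gene's level on an array is the median polish of its probe sets. The dimmest 25% of genes by mean level (log2 under 5.61) were not tested. The 11852 others were fitted with limma 3.58.1 in R 4.3.3, with lmFit and eBayes, 1 mean per age, all 20 arrays and 15 residual degrees of freedom. Tests were two-sided. P-values were adjusted by Benjamini-Hochberg over all genes tested, and "called" means an adjusted p under 0.05. An F test covered the 5 ages, and 8 comparisons covered pairs of them.

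The members and lists were chosen with earlier results of these data known. Named genes are up to 4 per list of pathway, chondroitin and dermatan sulfate, or growth factor genes, called genes with the largest difference first. The genes like Hs6st2 are the 8 highest and 4 lowest in r, with predicted genes skipped. Alternatives were the mean or the brightest probe set, no filter or a 50% filter, median centring, array weights, a replicate block, fits on both ages only, and leaving out each array. The steps were tested on simulated data. Replicate numbers did not pair the mice, since deviations of same-numbered arrays from their age means correlated between -0.489 and 0.461, with a median of -0.0052. Figures were drawn with matplotlib 3.10.9.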

Additional observations from a re-analysis of the deposited data

Results flagged for a closer look

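The 4 arrays of each age formed a group for each of the 10 genes and each named gene of the other lists. These are the pathway, chondroitin and dermatan sulfate, and growth factor lists. Of the 225 groups examined, 17 had an array standing apart from the other 3 by Dixon's test, where chance marks about 1 in 20 groups. Among the 10 genes these were Hs6st2 at 1 month (replicate 3, 6.283, against 6.59 to 6.66 in the others), Hs6st1 at 4 months (replicate 3, 9.47), Hs6st3 at 6 months (replicate 2, 8.83), Hs2st1 at 2 months (replicate 2, 9.748) and Sulf2 at 4 months (replicate 1, 10.62) and 10 months (replicate 3, 10.09). Both Sulf2 arrays decide whether its difference between 10 and 4 months passes the threshold. Without replicate 3 of 1 month the Hs6st2 difference between 10 months and 1 month was 1.93.

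The other 11 were in pathway genes and in the growth factor gene Fgf2. Replicate 3 of 1 month stood apart in Glce (7.282), Extl2 (10) and Fgf2 (8.45), replicate 2 of 1 month in B3galt6 (7.631) and Sgsh (7.92), and replicate 1 of 1 month in Extl1 (7.142) and Slc26a2 (9.277). Xylt2 was low in replicate 1 of 4 months (8.648), and Papss2 was high in replicate 2 of 6 months (6.276), the array of that age with lens genes at 8.21. At 10 months Ndst2 was low in replicate 1 (7.723) and Col18a1 in replicate 2 (8.009).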

How the results depend on the processing

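Sides of the threshold held for most values. Over the 10 genes, 620 values under other settings and 1535 with 1 array left out counted as unchanged. Calls were lost in 27 and 55 and gained in 18 and 10. A change of sign in a value called in neither fit counted as unchanged. Hs6st2 has no test, and its values counted as unchanged where the sign held and the shift was within its SD within ages. The other 5 values shifted by more than that. They were differences of Hs6st2 by its brightest probe set, 0.59, 0.98, 1.06 and 1.40 for 2, 4, 6 and 10 against 1 month and 0.39 for 4 against 2 months. With 1 array left out its difference between 10 months and 1 month was 1.93 to 2.05. For 10 against 1 month the 0 calls among the 9 other genes became 1 with the mean or the brightest probe set, a 50% filter, median centring or array weights, and 2 without the 10 month arrays low in Y-linked genes, a setting chosen after seeing the data; for 10 against 4 months the 3 calls became 5 with the 50% filter and 1 with both ages only or without those arrays. For 10 against 6 months the 2 calls became 0 with the mean, no filter, a replicate block or both ages only, and 1 with the brightest probe set or without those arrays. For 2 against 1 month the 2 calls became 4 with array weights and 1 with the brightest probe set, no filter, the replicate block or both ages only. Array weights gave 2 calls in place of 1 for 4 against 1 month, and weights or centring gave 4 in place of 2 in the F test. The pathway counts of 22, 12, 14, 2, 6 and 18 (10 against 1, 10 against 4, 10 against 6, 2 against 1 and 6 against 1 month, and F test) were 11, 4, 5, 1, 3 and 8 with the brightest probe set. Array weights gave 8, 10 and 12 for 2, 4 and 6 against 1 month, and 10 against 6 months gave 7 with both ages only and 8 without the arrays low in Y-linked genes. With 1 array left out, the counts for 2, 4, 6 and 10 against 1 month, 10 against 6, 10 against 4 months and the F test ran over 1 to 2, 1 to 1, 1 to 1, 0 to 1, 0 to 3, 2 to 4 and 2 to 4 of the 9 genes, and over 2 to 3, 4 to 7, 3 to 7, 18 to 23, 10 to 16, 9 to 12 and 15 to 21 pathway genes, and those for 4 against 2 and 6 against 4 months stayed 0. With the brightest probe set Col18a1 (-0.036) and Sdc1 (-0.19) at 10 against 1 month, and Naglu at 10 against 1 (0.040) and 10 against 6 months (0.076), changed sign. Replicate numbers did not pair the mice: 4 of 20 arrays correlated best with an array of their own number. The causes of these changes were not tested. Background signal was not analysed here, so what it limits was not tested.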
